A study of Mus musculus with 59 samples.

Results

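The genes described here are 39 markers of immune cells, read in brown adipose tissue (BAT), the fat that burns fuel for heat. They were taken as a fixed list, and all 39 were present among the 55341 genes of each count table. By role, 6 are expressed by most leukocytes (Ptprc, Laptm5, Cd52, Tyrobp, Fcer1g and Ctss), 18 mark macrophages and monocytes, 4 serve MHC class II antigen presentation (Cd74, H2-Aa, H2-Ab1 and H2-Eb1), 5 mark T cells, 3 mark B cells, 1 marks NK cells (Nkg7) and 2 mark neutrophils (S100a8 and S100a9). RNA was sequenced from the BAT of 59 male C57BL/6J mice aged 8 to 12 weeks, 1 library a mouse, in 15 groups and 3 experiments. In the thyroid hormone experiment, wild-type (WT) mice made hypothyroid with propylthiouracil (PTU) in the food were killed untreated (4 mice) or 3, 6, 12 or 24 h after 1 injection of thyroid hormone (TH, T3 with T4, 4 mice a time). BATKO mice were killed under PTU (5 mice) or 24 h after TH (5 mice), so that PTU was common to every group of that experiment. In the temperature experiment, CTRL and BATKO mice spent 24 h at 4 °C (3 CTRL, 4 BATKO) or at 30 °C (4 CTRL, 5 BATKO), and in the diet experiment they had chow (4 CTRL, 2 BATKO) or a high fat diet (HFD) for 3.5 d (4 CTRL, 3 BATKO). The labels name a BATKO genotype without its allele, its Cre driver or the cells it acts in, and call the comparison mice wild-type in the first experiment and CTRL in the others. Mice of a group were separate animals, as far as the labels tell.

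Brown fat is mostly brown adipocytes by mass, but it also holds vessels, nerves, fibroblasts and resident macrophages, which engulf debris, make complement and present antigen. MHC class II molecules are pairs of an alpha and a beta chain, such as H2-Aa with H2-Ab1, that carry peptides to CD4 T cells, and Cd74 is the invariant chain that escorts them. Macrophages, dendritic cells and B cells hold most of these molecules, and some other cells make them under interferon gamma.

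Total counts per library ran from 7612059 to 18073627, with 39.2% to 55.7% of them on mitochondrial genes, and the 39 genes together took between 0.0106% and 0.0906% of a library. Values below are normalised counts, that is counts divided by the TMM-scaled library size and multiplied by the mean of that size within an experiment, so levels can be compared between mice of 1 experiment and not across experiments. Markers of brown adipocytes were at high levels in every mouse, with summed levels of 65722 to 316619 over 9 genes. Skeletal muscle genes ranged from 7.70 to 90025 summed over 8 genes between single mice, and their part in the results below was not tested. A few mice stood apart in the immune markers themselves. Mouse B11 of the 3 h group was highest of its group in 24 of 26 members with a group mean above 10, mouse B23 of the 12 h group in 22 of 22, mouse B27 of the 24 h group in 19 of 25, and mouse 10 of the CTRL HFD group in 22 of 30.

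Members differed widely in level. In the 4 CTRL mice at 30 °C, per length of exons, Cd74 was highest at 57.2 ± 16.7 CPM per kilobase (SD, n = 4). Fcer1g, the shared gamma chain of activating Fc receptors, followed at 39 ± 7.02, then H2-Aa at 24.8 ± 6.55, the lysozyme gene Lyz2 at 21.9 ± 7.79 and the complement gene C1qb at 16.9 ± 4.56. The ranges of neighbours in this order overlapped, while those of Cd74 (40.2 to 73.7) and H2-Aa (19.0 to 33.3), further apart, did not. Their normalised counts, before division by length, did overlap (733 to 1345 and 785 to 1376). The exon lengths used were 1679 bases for Cd74 and 3798 for H2-Aa, each merged over all annotated transcripts. Cd74, Fcer1g, H2-Aa, Lyz2 and C1qb were also the first 5 on this scale in the CTRL chow group, where Fcer1g led at 28.4 ± 5.37, and in the WT PTU group, where Cd74 led at 17.6 ± 6.11.

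The lowest 4 of the 39 genes were Cd8a, Cd3g, Ms4a1 and Trem2, while Nkg7 at 1.39 ± 0.495 lay above Adgre1 at 0.865 ± 0.371. On the same scale and in the same CTRL mice at 30 °C, Cd3g, a chain of the T cell receptor complex, was at 0.0767 ± 0.0158, and Ms4a1, the B cell surface antigen CD20, was at 0.0607 ± 0.0133. Cd3e had raw counts of 0 to 17 over all mice, Cd79a, the signalling chain of the B cell receptor, 0 to 9, and Nkg7, a granule protein of NK and cytotoxic T cells, 0 to 24. Of the T cell markers Cd3e, Cd3g, Cd4, Cd8a and Il7r and the B cell markers Cd79a, Cd79b and Ms4a1, only Il7r reached the mean of 10 normalised counts needed for a test, and only in the diet experiment. Testable members numbered 24 in the fit of the WT mice, 25 where WT and BATKO mice of that experiment were fitted together, 26 in the temperature and 30 in the diet experiment. Besides lymphocyte genes, the myeloid genes Itgam, Itgax, Trem2, Lyz1, Fcgr1 and Cx3cr1 fell under this limit in at least 1 of these fits.

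Promoter sequence (RefSeq, build GRCm38.p6, 250 bases before to 50 after the start) was at hand for 28 of the 39 genes. Cd74, H2-Ab1, Csf1r and Cd14 were among the rest and were not searched. The letters TGATTGG, the core of the Y box of MHC class II promoters, searched on both strands, were in 3 of these (10.7%, Cd68, H2-Aa and H2-Eb1). They were in 9.0% of 27025 promoters, so the share was near the background. The letters AGGAAGT, a form of the PU.1 site of myeloid and B cells, were in 12 of 28 (42.9%, among them Ptprc, Lyz2, Mrc1, Ctss, C1qb and C1qc) and in 10.7% of all promoters. The stretches below lie before the RefSeq start of 2 class II genes called lower in the cold in at least 1 genotype and of 2 macrophage genes given for each mouse in the diet experiment, of which C1qb was called there, each 5′ to 3′ on the strand of the gene. The stretch of H2-Aa is chr17:34287824-34287918 and that of H2-Eb1 chr17:34305761-34305857, with the Y box core in capitals. That of Lyz2 is chr10:117282321-117282417 and that of C1qb chr4:136886202-136886298, with capitals for the PU.1 letters, which read on the opposite strand in both.
H2-Aa: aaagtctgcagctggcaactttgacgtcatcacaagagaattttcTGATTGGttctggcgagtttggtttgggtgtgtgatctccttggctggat
H2-Eb1: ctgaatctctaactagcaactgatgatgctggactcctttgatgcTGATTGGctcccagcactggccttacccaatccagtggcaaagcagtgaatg
Lyz2: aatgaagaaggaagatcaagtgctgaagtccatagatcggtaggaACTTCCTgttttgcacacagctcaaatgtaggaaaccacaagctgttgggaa
C1qb: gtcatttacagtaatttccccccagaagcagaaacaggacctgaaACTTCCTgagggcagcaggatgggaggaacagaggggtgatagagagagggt
A match is a run of letters and not a mapped binding site.

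Summed over all 39 genes, the level of each mouse gives a first view. In the temperature experiment the sums were 6416, 6539, 4144 and 4303 in CTRL mice at 30 °C and 3322, 3101 and 2307 at 4 °C, with no overlap. In BATKO mice they were 3534, 5700, 4242, 5426 and 5919 at 30 °C and 3144, 3612, 3947 and 2974 at 4 °C, which overlapped. In the diet experiment, CTRL mice had 2731, 2814, 2733 and 3167 on chow and 7355, 3700, 3795 and 4435 on HFD, again without overlap. The BATKO mice had 4753 and 6592 on chow and 3718, 4138 and 5399 on HFD, so both BATKO mice on chow lay above all 4 CTRL mice on chow. In the TH experiment every group overlapped the WT mice under PTU, whose sums were 2954, 2351, 3555 and 1968. These sums are a description with no test. In bulk tissue, fewer cells of a type and less RNA per cell cannot be told apart, here or in any result that follows.

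**Figure D1:**
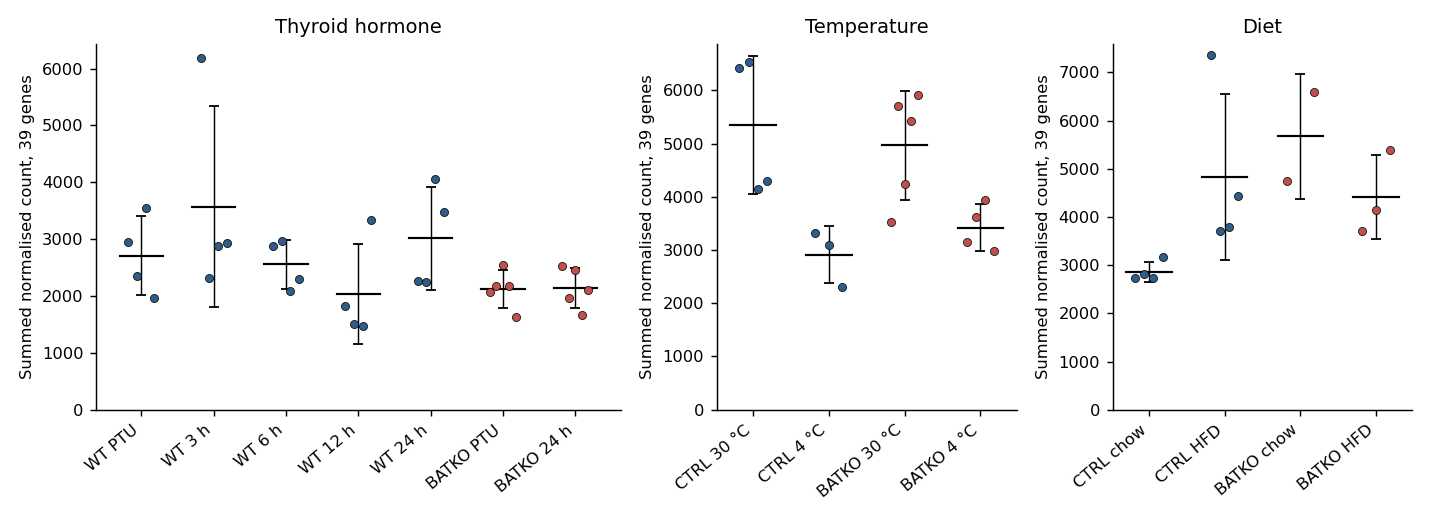
Summed normalised count of the 39 immune marker genes (vertical axis, linear from 0, scaled within each experiment) for each of 59 mice, by group. Points are mice, blue for WT or CTRL and red for BATKO, lines are group means and bars are SD. CTRL mice at 4 °C (2307 to 3322) lie below CTRL mice at 30 °C (4144 to 6539), and 1 mouse of the 3 h group (6182) and 1 of the CTRL HFD group (7355) stand above the rest of their groups.

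The temperature experiment asks how 24 h in the cold, against thermoneutrality, changes the tissue. In CTRL mice the immune markers were lower at 4 °C: 12 of the 26 testable members fell and none rose (edgeR's quasi-likelihood test, adjusted p under 0.05, Benjamini-Hochberg over 13267 genes). Over all genes 49.1% were called, 22.6% lower and 26.5% higher, so that changes in either direction were common. The median log2 fold change of the members was -0.88 and all 26 were below 0, against a median of -0.01 over all genes tested. DESeq2 called 13 members lower and 49.5% of all genes in either direction, and leaving out each mouse in turn gave 10 to 16 members and 40.5% to 47.7% of all genes. Groups did not overlap for 11 of the 26 members, all of them called, where 50.4% of all genes had groups without overlap.

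Of the 6 pan-leukocyte genes, 5 fell in CTRL mice in the cold, where 22.6% of all genes were called lower. Ptprc, which encodes CD45, the phosphatase on the surface of all leukocytes, was at 60.8, 58.3, 63.3 and 48.6 normalised counts at 30 °C and at 12.3, 24.0 and 42.0 at 4 °C. All cold mice were below all warm mice, and the log2 fold change was -1.14 (SE 0.36, edgeR adjusted p = 0.0148). Without CTRL mouse 1 at 4 °C it was no longer called (adjusted p = 0.066). Laptm5, a lysosomal membrane protein of leukocytes, was at 155, 130, 112 and 111 against 50.3, 48.1 and 61.8, a log2 change of -1.25 (SE 0.26, edgeR adjusted p = 0.000819). Cd52, a small glycoprotein on lymphocytes and myeloid cells, was at 102, 110, 84.9 and 72.9 against 36.8, 30.7 and 24.5, the largest fall among these 6 genes (-1.59, SE 0.28, edgeR adjusted p = 0.000194). Its exons overlap those of Crybg2 on the other strand by 172 bases, and the strand setting of the counting is not given in the sources used here. Ctss, a lysosomal protease that trims the invariant chain, fell by 0.99 and Fcer1g by 0.86 on the log2 scale. Tyrobp, the adaptor DAP12, had a log2 change of -0.63 (SE 0.33, edgeR adjusted p = 0.119).

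Among 14 testable macrophage and monocyte genes, 4 fell in CTRL mice in the cold, where 22.6% of all genes were called lower, so that the share was near the background. They were Cd14, the lipopolysaccharide co-receptor (log2 change -1.29, SE 0.30), Ccr2, the chemokine receptor of recruited monocytes (-1.54, SE 0.32), Cx3cr1, the fractalkine receptor (-2.52, SE 0.61), and Lyz2 (-0.83, SE 0.26). Cd14 was at 157, 136, 101 and 86.6 in the warm and at 51.5, 65.4 and 31.5 in the cold. Cx3cr1 is low, at a mean of 11.1 normalised counts over the experiment. Lyz2 had values of 454, 350, 230 and 218 at 30 °C and 134, 207 and 188 at 4 °C, with a narrow gap between the groups, and its call was lost in 2 of 7 fits that left out a mouse. The core markers of tissue macrophages were not called. Adgre1, which encodes F4/80, was at 44.3, 37.4, 25.3 and 14.8 at 30 °C and 23.3, 16.0 and 14.0 at 4 °C (-0.78, SE 0.41, edgeR adjusted p = 0.123). Cd68, a lysosomal glycoprotein, was at 136, 133, 80.4 and 104 against 73.6, 85.5 and 78.2, so the groups overlapped. Mrc1, the mannose receptor, was at 292, 272, 220 and 226 against 162, 204 and 280 (-0.23, SE 0.24), and the scavenger receptor gene Cd163 was at 105, 73.0, 44.3 and 33.8 against 55.2, 53.4 and 70.02 (-0.11, SE 0.36). C1qa, a chain of the complement starter C1q, had 102, 83.5, 63.3 and 50.7 against 68.7, 68.1 and 35.0 normalised counts, also overlapping. The 14 genes had a median of -0.57.

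Of the 4 antigen presentation genes, 3 fell in CTRL mice and all 4 in BATKO mice in the cold, where 22.6% and 18.9% of all genes were called lower. Cd74 was at 1258, 1345, 733 and 836 in CTRL mice at 30 °C and at 580, 433 and 274 at 4 °C, with no overlap (log2 change -1.28, SE 0.30, edgeR adjusted p = 0.00212). In BATKO mice it was at 681, 1278, 957, 1453 and 1535 at 30 °C and at 583, 594, 570 and 418 at 4 °C, again with no overlap (-1.12, SE 0.26, edgeR adjusted p = 0.00269). H2-Aa ran in CTRL mice from 785 to 1376 in the warm and from 266 to 617 in the cold (-1.17, SE 0.29). In BATKO mice it ran from 697 to 1308 and from 365 to 607 (-1.05, SE 0.25).

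The beta chain genes behaved less evenly. H2-Ab1 was at 462, 527, 323 and 372 in CTRL mice at 30 °C and 329, 230 and 107 at 4 °C, so that 1 cold mouse lay within the warm range (-0.93, SE 0.31, edgeR adjusted p = 0.0204), and the call was lost in 3 of 7 fits without 1 mouse. In BATKO mice H2-Ab1 was at 350, 646, 384, 511 and 647 against 177, 164, 232 and 155, with a wide gap (-1.48, SE 0.27, edgeR adjusted p = 0.000487). H2-Eb1 was at 273, 337, 211 and 228 against 270, 203 and 98.0 in CTRL mice and was not called (-0.47, SE 0.29, edgeR adjusted p = 0.2). In BATKO mice it was at 176, 356, 242, 295 and 346 against 181, 120, 139 and 127 (-0.999, SE 0.26, edgeR adjusted p = 0.0062), with 1 warm mouse within the cold range. The test of the difference between genotypes called none of the 4 genes, with interaction log2 values of 0.16 for Cd74 (SE 0.39), 0.12 for H2-Aa (SE 0.37), -0.56 for H2-Ab1 (SE 0.40) and -0.53 for H2-Eb1 (SE 0.39).

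**Figure D2:**
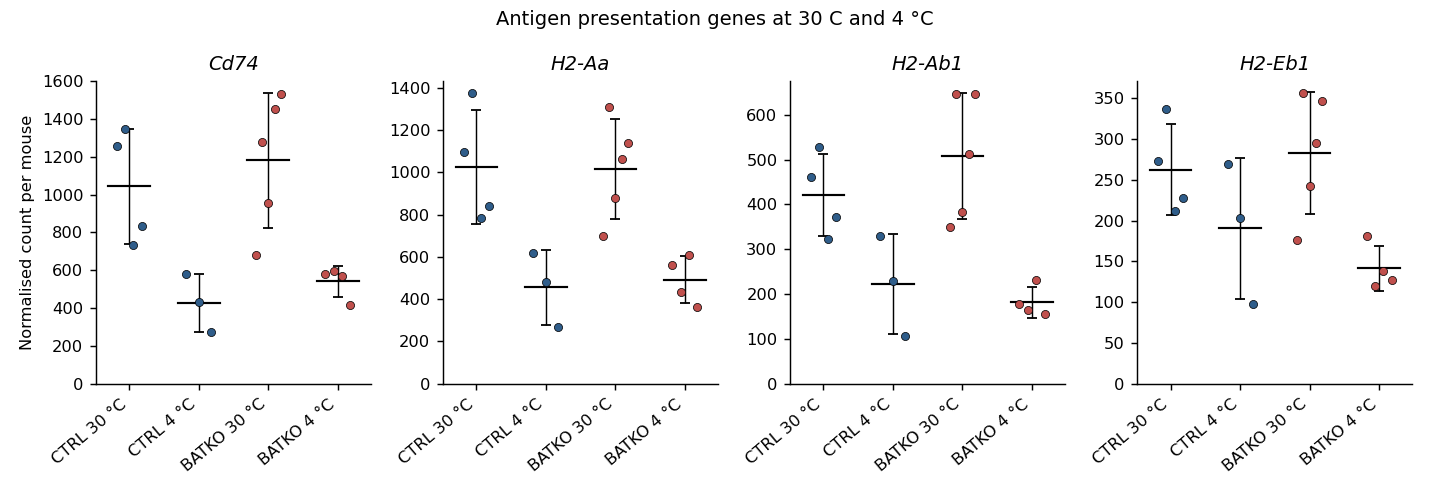
Normalised counts per mouse (vertical axes, linear from 0) of the 4 antigen presentation genes in CTRL (blue) and BATKO (red) mice at 30 °C and 4 °C, with group means (lines) and SD (bars). Cd74 in the cold stays at or below 594 in both genotypes while all mice at 30 °C are at 681 or above.

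Over all 26 testable members in BATKO mice, 6 fell in the cold and 2 rose (edgeR, adjusted p under 0.05), where 40.3% of all genes were called, 18.9% lower and 21.4% higher. Groups did not overlap for 4 of the 26, against 31.2% of all genes. The median was -0.23, against -0.02 over all genes, and 11 of 26 were above 0. The 6 that fell were the 4 antigen presentation genes, Cd14 and Cd52. Cd14 was at 75.9, 130, 143, 141 and 146 at 30 °C and 57.3, 89.0, 55.2 and 54.2 at 4 °C (-0.99, SE 0.25, edgeR adjusted p = 0.00505). Cd52 was at 65.6, 83.7, 47.3, 92.9 and 81.7 against 43.0, 33.7, 67.1 and 38.9 (-0.70, SE 0.23, edgeR adjusted p = 0.0242), and this call was lost in 5 of 9 fits without 1 mouse.

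The 2 that rose are both endocytic receptors of resident macrophages. Cd163, the receptor for haptoglobin and haemoglobin complexes, was at 36.7, 43.3, 42.6, 22.8 and 19.1 in BATKO mice at 30 °C and at 88.4, 141, 76.9 and 94.2 at 4 °C. Every cold mouse was above every warm one (1.61, SE 0.31, edgeR adjusted p = 0.000718), and the call held without any 1 mouse. Mrc1 was at 157, 165, 177, 110 and 141 against 177, 256, 364 and 193 (0.72, SE 0.21, edgeR adjusted p = 0.0118). Its lowest cold mouse lay just below the highest warm mouse, and without BATKO mouse 7 at 4 °C it was not called (adjusted p = 0.0683). Haemoglobin and other erythrocyte genes were higher in the cold in both genotypes, with 3 of 5 called in each and summed levels of 1926 to 5385 at 30 °C and 8339 to 18619 at 4 °C, and their part in the Cd163 result was not tested. Values for the members without a call were as follows. Ptprc was at 38.4, 41.3, 30.3, 31.3 and 39.01 at 30 °C and 25.1, 15.3, 43.3 and 42.4 at 4 °C. Laptm5 was at 63.9, 130, 99.3, 142 and 130 against 77.6, 65.4, 107 and 102, and Lyz2 at 176, 220, 225, 230 and 230 against 180, 293, 336 and 241. All of them overlapped between temperatures. Adgre1 ran from 13.3 to 29.2 and from 20.3 to 47.6, C1qa from 56.3 to 82.7 and from 66.0 to 90.7, and Cd68 from 60.5 to 138 and from 53.7 to 95.1.

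**Figure D3:**
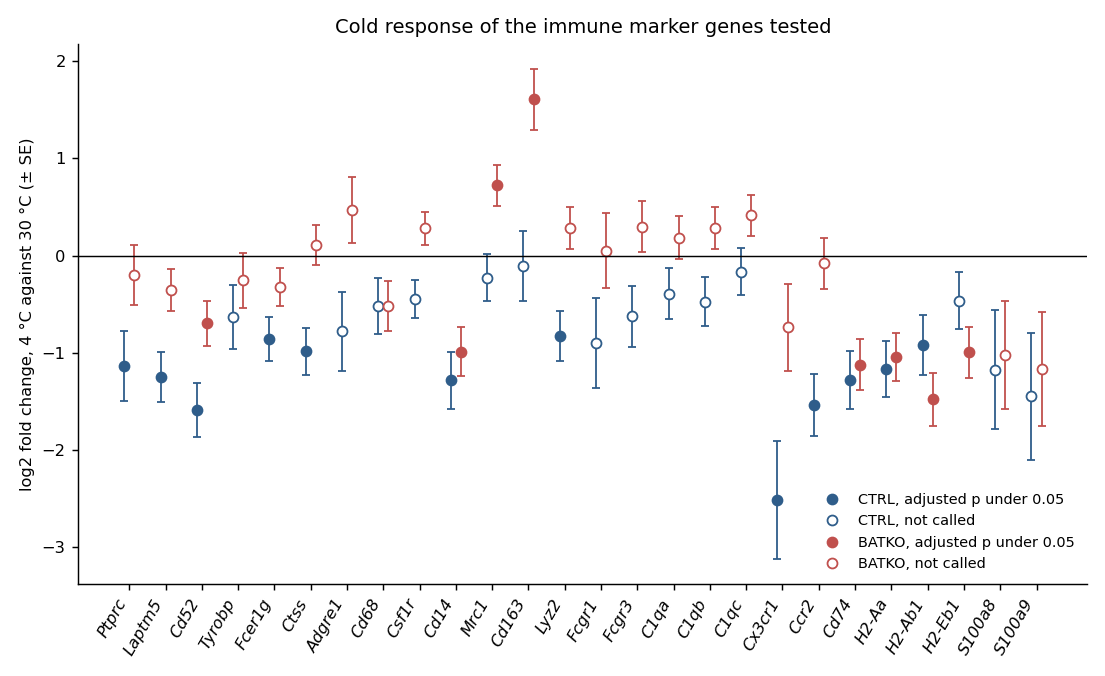
Log2 fold change, 4 °C against 30 °C, with its SE (vertical axis) for each of the 26 testable immune marker genes (horizontal axis, by role), in CTRL mice (blue) and BATKO mice (red). Filled points have an edgeR adjusted p under 0.05. All CTRL values are below 0, the 4 antigen presentation genes are low in both genotypes, and Cd163 and Mrc1 are above 0 with an edgeR call in BATKO mice only. The edgeR interaction test called neither gene, while DESeq2 called Cd163 (adjusted p = 0.0172) and edgeR without CTRL mouse 5 at 4 °C called Mrc1 (adjusted p = 0.0426).

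Whether the genotypes differed in their cold response was tested as an interaction, and edgeR called 0 of 26 members (1.12% of all genes were called, 0.317% higher and 0.807% lower). At an unadjusted p under 0.05 there were 12 (46.2%, against 18.6% of all genes), all with a positive interaction, and the median was 0.74 against -0.02 over all genes. Fibroblast and progenitor genes moved the same way, with a median of 0.84, 7 of 7 above 0, 5 of 7 at an unadjusted p under 0.05 and 0 called by edgeR. Their summed level was 2758 to 3891 at 30 °C and 2099 to 2297 at 4 °C in CTRL mice, and 2566 to 3129 and 2443 to 3834 in BATKO mice. Their part in the result was not tested. The lowest adjusted p values were those of Cd163 (1.72, SE 0.48, edgeR adjusted p = 0.0828), Ccr2 (1.46, SE 0.41, 0.0848), Ctss (1.10, SE 0.32, 0.0873) and Lyz2 (1.11, SE 0.33, 0.0949). DESeq2 called 2, Cd163 (adjusted p = 0.0172) and Lyz2 (adjusted p = 0.033), with 5.22% of all genes, and edgeR without CTRL mouse 5 at 4 °C called 3, namely Ctss, Mrc1 and Ccr2, with 6.82% of all genes. BATKO mice did not differ from CTRL mice by a call at 4 °C, with 0 of 26 called by edgeR and by DESeq2, 4 at an unadjusted p under 0.05 (15.4%, against 16.5% of all genes), and 2.16% of all genes called, 0.957% higher and 1.2% lower. At 30 °C the count was likewise 0 by both tools, with 8 at an unadjusted p under 0.05 (30.8%, against 9.11% of all genes) and 0.00754% of all genes called. The medians were 0.36 and -0.37 at the 2 temperatures, with 21 of 26 members above 0 at 4 °C and 4 of 26 at 30 °C. These comparisons share their mice with the cold comparisons within each genotype and are not independent of them.

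S100a8, an alarmin stored in neutrophils, was not called in either genotype in the cold. In CTRL mice it was at 15.6, 37.4, 11.7 and 13.7 at 30 °C and 2.45, 10.7 and 12.8 at 4 °C (-1.18, SE 0.61, edgeR adjusted p = 0.124). In BATKO mice it was at 31.5, 11.1, 10.4, 9.48 and 5.89 against 3.58, 6.14, 9.74 and 7.06. Cd3e was at 14.8, 13.0, 8.13 and 9.51 against 2.45, 1.34 and 3.50 in CTRL mice, and at 8.53, 5.04, 3.78, 4.74 and 9.57 against 2.39, 4.09, 3.25 and 7.06 in BATKO mice. The CTRL groups did not overlap. Counts that low stayed under the minimum for the main test, and edgeR without that minimum called Cd3e lower in CTRL mice (-2.15, SE 0.58, adjusted p = 0.00648). It also called Itgax, another member under the minimum, lower in CTRL mice (-2.53, SE 0.62, edgeR adjusted p = 0.0028) and in BATKO mice (-1.50, SE 0.48, 0.0261). Of all genes, 24% and 19.1% were called in these fits. Nkg7 was at 12.2, 20.9, 12.7 and 9.51 against 8.59, 4.01 and 5.83 in CTRL mice, and Cd79a was at 7.83 normalised counts or below in every mouse of the experiment.

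Other immune genes, from lists outside the 39, are to be read against the shares of all genes called, 22.6% lower and 26.5% higher in CTRL mice and 18.9% and 21.4% in BATKO mice. Of 9 testable antigen presentation genes 5 fell in CTRL and 7 in BATKO mice and none rose, among them Rfx5, a factor of class II promoters (-1.52, SE 0.18 in CTRL and -1.15, SE 0.15 in BATKO mice), and Tap1, the peptide transporter for class I (-1.73, SE 0.23 and -1.47, SE 0.19). Among 21 cytokine and chemokine genes 9 fell and 3 rose in CTRL mice, and 6 fell and 3 rose in BATKO mice. Cxcl9 and Cxcl10, chemokines known as interferon gamma targets, fell in both, with log2 changes of -2.17 and -3.13 in CTRL mice and -1.61 and -2.71 in BATKO mice. Of 17 other macrophage genes, 9 fell and 0 rose in CTRL mice (10 at an unadjusted p under 0.05), among them Cybb, the phagocyte oxidase (-1.65, SE 0.25), and in BATKO mice 3 fell and 3 rose. The edgeR interaction called 0 genes of the antigen presentation, cytokine and macrophage lists, with 1, 7 and 6 at an unadjusted p under 0.05. Folr2 and Clec10a, which mark resident and alternatively activated macrophages, were among the 3 that rose (1.31, SE 0.38 and 1.36, SE 0.40). Beside these, 7 of 9 brown adipocyte genes rose in each genotype, of which Ucp1, the uncoupling protein, rose by a log2 value of 4.40 in CTRL and 3.43 in BATKO mice, and the part of this shift in the immune marker values was not tested.

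The diet experiment asks what 3.5 d of HFD do in each genotype. In CTRL mice, 2 of 30 testable members rose and none fell (edgeR, adjusted p under 0.05), where 3.94% of all genes were called, 1.89% higher and 2.04% lower. They were C1qb and C1qc, which with C1qa build the C1q molecule. C1qb was at 180, 161, 155 and 175 normalised counts on chow and 353, 284, 286 and 236 on HFD, with no overlap (log2 change 0.79, SE 0.18, edgeR adjusted p = 0.0259). C1qc was at 160, 137, 129 and 137 against 298, 199, 208 and 198 (0.68, SE 0.16, edgeR adjusted p = 0.0312). Each call was lost in 4 of 8 fits that left out a mouse, and the count of called members went from 0 without CTRL mouse 2 on chow to 6 without CTRL mouse 7 on HFD. C1qa followed with values of 51.3, 43.5, 44.7 and 50.9 on chow and 68.1, 76.0, 69.3 and 82.6 on HFD, which did not overlap but missed the threshold (0.63, SE 0.20, edgeR adjusted p = 0.0873).

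Beyond C1q the CTRL groups differed in the same direction for most members, though without a call. The median was 0.82 over 30 members, with 27 above 0 and 20 (66.7%) at an unadjusted p under 0.05, against a median of 0.01 and 21.7% at that p over all genes. Markers of other cells moved in the same comparison, with 3 of 9 brown adipocyte genes (median 0.38) and 2 of 7 fibroblast and progenitor genes (median 0.45) called higher, where 1.89% of all genes were, and with a median of -2.74 over 8 skeletal muscle genes, none called by edgeR and 2 at an unadjusted p under 0.05. Fibroblast and progenitor genes summed to 2204 to 2794 in CTRL mice on chow and 2857 to 3666 on HFD. Their part in the result was not tested. Groups did not overlap for 9 of the 30, where 10.7% of all genes had groups without overlap. Lyz2 was at 202, 190, 193 and 178 on chow and 841, 265, 316 and 289 on HFD (1.17, SE 0.35, edgeR adjusted p = 0.0767). Cd68 was at 36.7, 40.5, 46.5 and 35.4 on chow, and on HFD at 331 in mouse 10 and at 44.7, 31.9 and 63.0 in the other 3 mice. Mrc1 was at 259, 263, 160 and 197 against 537, 258, 286 and 257. Mouse 10 was the highest of its group in each of these 3 genes. It also had 80.7 normalised counts of Trem2, a lipid receptor of macrophages (3.35 to 7.70 in the other 3). Without it the member median was 0.50 and Laptm5 was the single call of 30 members (0.57, SE 0.14, edgeR adjusted p = 0.0462), with 1.98% of all genes called in that fit.

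The call in CTRL mice depended on the tool and on the filter. DESeq2 called 10 members higher on HFD (6.76% of all genes were called in either direction), the 2 C1q genes and Laptm5, Cd52, Tyrobp, Ctss, Csf1r, Fcgr1, Fcgr3 and Ccr2. Without the minimum of 10 mean counts edgeR called 18 (4.93% of all genes). All of these calls were in the direction of HFD.

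None of the 4 antigen presentation members was called with diet in either genotype by edgeR or DESeq2. Of 10 testable antigen presentation genes outside the 39, Ciita, the class II transactivator, was the single call in CTRL mice (1.77, SE 0.46, edgeR adjusted p = 0.0446), where 1.89% of all genes were called higher. Cd74 in CTRL mice was at 268, 317, 391 and 461 on chow and 381, 514, 426 and 679 on HFD (0.48, SE 0.25, edgeR adjusted p = 0.283). H2-Ab1 was at 136, 137, 221 and 241 against 184, 222, 202 and 325, so that both genes overlapped between diets. Ptprc, at 60.5, 36.4, 24.2 and 40.9 against 104, 41.3, 52.8 and 40.2, and Adgre1, at 47.7, 37.4, 34.4 and 28.2 against 131, 55.9, 40.7 and 36.9, also overlapped. S100a8 was at 11.9, 29.3, 6.52 and 15.5 against 15.6, 13.4, 13.2 and 10.9. Cd3e stayed at 7.27 or below, Cd79a at 2.79 or below and Nkg7 at 10.7 or below in every mouse of the experiment, too low for a test. Il7r, the interleukin 7 receptor and the 1 testable lymphocyte marker, was at 11.0, 7.08, 2.79 and 9.09 on chow, and on HFD at 96.3 in mouse 10 and at 6.70, 5.499 and 3.26 in the other 3 mice (1.91, SE 0.89, edgeR adjusted p = 0.227). The difference rests on mouse 10.

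In BATKO mice no member was called. On HFD against chow edgeR called 0 of 30 members, as did DESeq2, 1 member had an unadjusted p under 0.05 (Il7r, -2.36, SE 1.03) against 15.4% of all genes, and 0.0696% of all genes were called, 0.0309% higher and 0.0387% lower. The median was -0.58 with 7 of 30 above 0. Lyz2 was at 559 and 668 on chow and 173, 479 and 428 on HFD, and Cd68 at 132 and 183 against 38.3, 110 and 59.8, with all HFD mice below both chow mice for these genes. C1qb, at 241 and 399 against 228, 301 and 380, Cd74, at 299 and 515 against 583, 311 and 613, and Mrc1, at 409 and 470 against 222, 354 and 341, are the remaining examples, of which Mrc1 did not overlap. Groups did not overlap for 14 of the 30 members. With 2 mice on chow, 36.4% of all genes had groups without overlap, so a gap of this kind was common.

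On chow, the 2 BATKO mice were above the 4 CTRL mice in 22 of 30 members without overlap, where 17.7% of all genes had groups without overlap in either direction. The median log2 difference was 1.24, against -0.03 over all genes, and 26 of 30 were above 0. No member was called by edgeR, which called 0% of all genes here, while 22 members (73.3%) had an unadjusted p under 0.05, against 7.92% of all genes, and DESeq2 called 2, C1qb and C1qc, with 0.256% of all genes. Fitted to these 6 mice alone, edgeR called 12 members and 0.879% of all genes, and without the count minimum 19 members and 1.12% of all genes. Fibroblast and progenitor genes summed to 3586 and 4089 in these BATKO mice and to 2204 to 2794 in the CTRL mice, and Schwann cell genes to 486 and 524 against 619 to 1030, both without overlap, and their part in the result was not tested. Examples among the members are Ctss (2.58, SE 0.63, edgeR adjusted p = 0.312), Cd68 (1.98, SE 0.69, 0.461), Laptm5 (1.71, SE 0.42, 0.312) and Lyz2 (1.69, SE 0.41, 0.312). Cd74 differed by 0.18 (SE 0.30) and H2-Ab1 by 0.17 (SE 0.36). The difference between genotypes in the diet response was not called for any member by edgeR or DESeq2, with 20 of 30 (66.7%) at an unadjusted p under 0.05 against 5.72% of all genes, a median of -1.24 and 0% of all genes called by edgeR. On HFD itself, 0 of 30 members were called by either tool in BATKO against CTRL mice, 2 had an unadjusted p under 0.05 (6.67%, against 5.34% of all genes), the median was -0.18, and 0% of all genes were called. These comparisons share the chow or HFD mice of each genotype with the comparisons above.

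**Figure D4:**
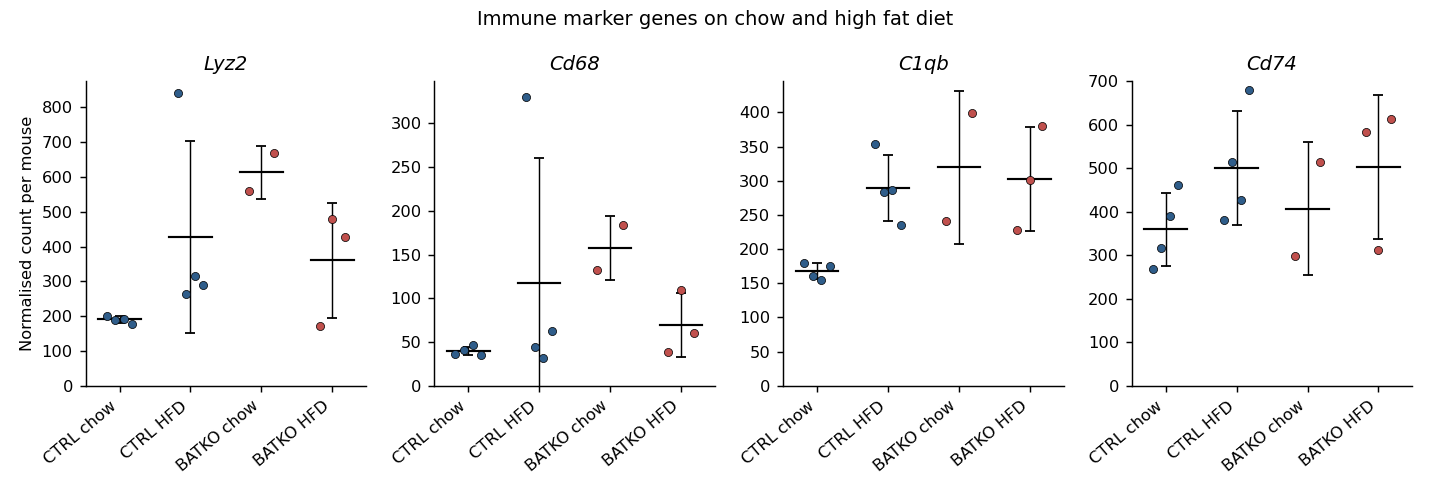
Normalised counts per mouse (vertical axes, linear from 0) of Lyz2, Cd68, C1qb and Cd74 in CTRL (blue) and BATKO (red) mice on chow and HFD, with group means (lines) and SD (bars, of which the one for Cd68 in CTRL mice on HFD reaches past the axis at 0). For C1qb the CTRL mice on HFD (236 to 353) lie above those on chow (155 to 180), and 1 CTRL mouse on HFD carries Lyz2 to 841 and Cd68 to 331.

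The TH experiment asks how immune markers follow hormone given to hypothyroid mice. In WT mice few members were called at any time, while the share of all genes called was 9.19% after 3 h, 23% after 6 h, 25.7% after 12 h and 32.7% after 24 h. At 3 h, 1 of 24 members was called higher, where 5.1% of all genes were called higher. This was S100a8 (3.39, SE 1.05, edgeR adjusted p = 0.0465). Its values were 14.1, 8.37, 3.32 and 4.61 under PTU and 289, 8.25, 8.85 and 6.24 at 3 h, so that mouse B11 alone set the difference, the other 3 lying within the PTU range. Without that mouse S100a8 fell under the minimum for a test and no member was called, and DESeq2 called 0 of 24. At an unadjusted p under 0.05 edgeR had 5 of 24 (20.8%), against 24.9% of all genes. Mouse B11 also had 750 of Lyz2 (192 to 252 in the other 3), 436 of C1qb (123 to 180) and 86.1 of Ptprc (25.8 to 33.4). Its erythrocyte genes summed to 16444 (2604 to 4485 in the others), and their part in the result was not tested. With it the median of the members at 3 h was 0.48, and without it -0.03.

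At 6 h no member was called by edgeR or DESeq2, 1 had an unadjusted p under 0.05 (Cd14, -0.47, SE 0.20) against 36.2% of all genes, and the median was -0.07. Lyz2 was at 204, 304, 160 and 175, Cd74 at 439, 357, 281 and 358, and Mrc1 at 158, 146, 98.1 and 113, against 348, 205, 356 and 199 for Lyz2, 379, 306, 578 and 282 for Cd74 and 189, 142, 154 and 92.1 for Mrc1 in the 4 WT mice under PTU that all 4 times share. All 3 genes overlapped.

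At 12 h there were again 0 calls by edgeR and DESeq2, with 4 at an unadjusted p under 0.05 (16.7%, against 36.8% of all genes). The median was -0.41, against -0.02 over all genes, and 1 of 24 was above 0. Mouse B23 stood above its group, with Cd74 at 422 (207 to 239 in the other 3), H2-Aa at 677 (249 to 289) and C1qc at 164 (67.3 to 82.3). Without it the median was -0.65 and 4 members were called lower, H2-Aa (-1.02, SE 0.23, edgeR adjusted p = 0.00349), Fcgr3, Adgre1 and Csf1r, where edgeR called 22.9% of all genes in either direction. Adgre1 was at 16.9, 10.1, 9.13 and 25.7 at 12 h against 32.1, 27.5, 31.5 and 28.8 under PTU, which did not overlap even with mouse B23, as for 26% of all genes (-0.98, SE 0.42, edgeR adjusted p = 0.0901).

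At 24 h, 1 of 24 members was called, where 17.2% of all genes were called higher. Cd68 was at 40.2, 51.4, 68.1 and 51.8 under PTU and 76.1, 65.3, 132 and 119 at 24 h, so that 1 mouse of each group fell in the range of the other (0.89, SE 0.26, edgeR adjusted p = 0.0107). The call held in all 8 fits that left out a mouse and with DESeq2. Earlier values of Cd68 were 115, 82.5, 68.8 and 66.6 (3 h). They were 83.5, 70.1, 59.6 and 64.6 in the 6 h mice and 53.8, 38.8, 37.7 and 83.4 in the 12 h mice, none of which gave a call. C1qb was at 129, 112, 188 and 107 under PTU and 147, 161, 329 and 237 at 24 h, and C1qc at 92.4, 86.1, 144 and 62.2 against 117, 107, 234 and 182 (0.73, SE 0.31, edgeR adjusted p = 0.0779). H2-Ab1 was at 153, 122, 196 and 112 against 93.6, 124, 164 and 130, and C1qa at 41.2, 41.9, 62.2 and 34.6 against 39.9, 61.5, 105 and 75.6. These groups overlapped. The median at 24 h was 0.28.

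**Figure D5:**
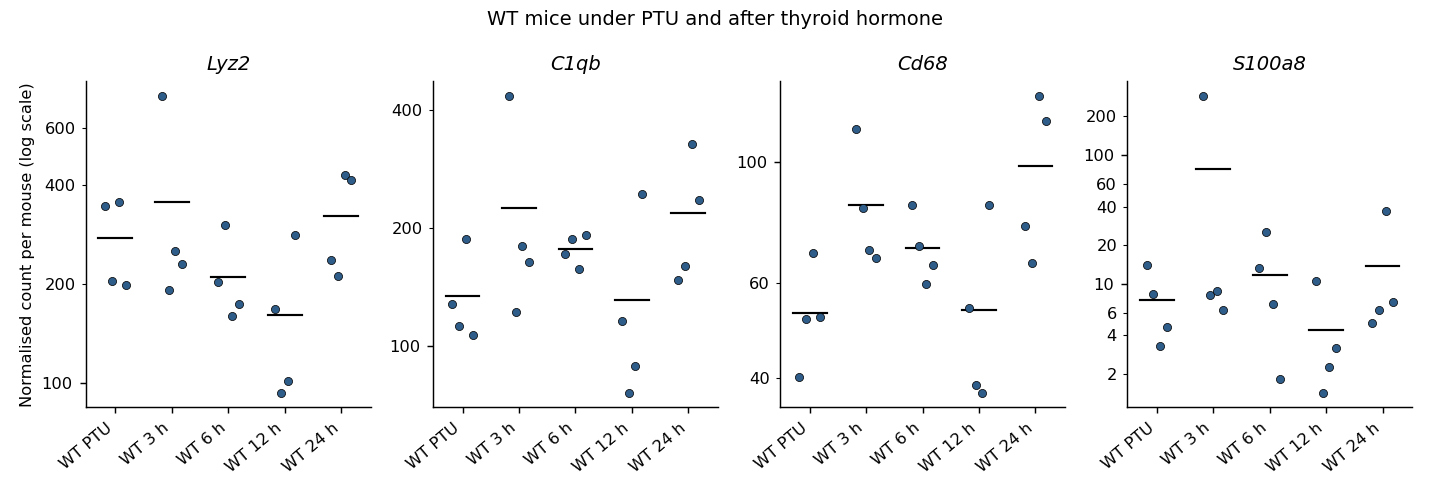
Normalised counts per mouse (vertical axes, log scale) of Lyz2, C1qb, Cd68 and S100a8 in WT mice under PTU and 3, 6, 12 and 24 h after TH, with group means as lines. Cd68 at 24 h (65.3 to 132) lies mostly above PTU (40.2 to 68.1), and 1 mouse at 3 h carries S100a8 to 289.

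Other immune genes in the WT course included the chemokine Cxcl14, which rose at every time. Its log2 change was 2.42 (SE 0.23) after 3 h and 3.24 (SE 0.23) after 24 h. Rfx5 fell after 6 h (-1.06, SE 0.19), 12 h (-0.86, SE 0.19) and 24 h (-0.86, SE 0.19). Among 16 cytokine and chemokine genes 5 rose and 2 fell at 24 h, where 17.2% and 15.5% of all genes did. At 12 h 3 rose and 1 fell, where 13.6% and 12.1% of all genes did, and the gene that fell was Il33 (-1.77, SE 0.32). Of 15 other macrophage genes 2 rose and none fell at 24 h, with a median of 0.03 and 8 above 0, and at 12 h 3 fell (Retnla, Cd9 and Mgl2) and none rose, with a median of -0.58, where 12.1% of all genes were called lower. Among lymphocyte genes outside the 39, Ighm, the heavy chain of IgM, rose at 12 h (1.66, SE 0.38) and 24 h (2.29, SE 0.37), and Igkc, the kappa light chain, fell at 24 h (-1.45, SE 0.52). The B cell members Cd79a, Cd79b and Ms4a1 went down, with sums of 9.21 to 20.3 under PTU, 3.42 to 8.44 at 12 h and 1.95 to 6.28 at 24 h. They were too low for the main test. Without the count minimum edgeR called Cd79b lower at 24 h (-1.69, SE 0.59, adjusted p = 0.0417), where 15% of all genes were called. Gpnmb, a lysosomal glycoprotein of lipid-laden macrophages, rose by 2.30 (SE 0.52) on the log2 scale at 24 h. Ighm (-2.18, SE 0.54, edgeR adjusted p = 0.00738), Cxcl14 (-2.48, SE 0.64, 0.01) and Gpnmb (-2.27, SE 0.75, 0.0443) differed between BATKO and WT mice in their 24 h response. Of 6 testable granulocyte and mast cell genes, Kit, the stem cell factor receptor, fell after 3 h (-2.33, SE 0.40, edgeR adjusted p = 0.000763) and 6 h (-2.61, SE 0.41, 0.000105), where 4.09% and 10.9% of all genes were called lower. After 12 h the mast cell proteases Tpsb2 (-1.24, SE 0.40, edgeR adjusted p = 0.0263) and Cpa3 (-1.08, SE 0.39, 0.0443) fell. The list summed to 371 to 613 under PTU, to 130 to 184 after 6 h and to 204 to 354 after 24 h, both below the PTU mice, and overlapped them after 3 h and 12 h. The class II genes themselves were not called at any time. Cd3e stayed at 8.74 or below, Cd79a at 5.62 or below and Nkg7 at 8.47 or below in every mouse of the TH experiment, too low for a test.

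BATKO mice given TH under PTU showed 0 of 25 members called at 24 h by edgeR or DESeq2, 0 with an unadjusted p under 0.05 in edgeR against 4.75% of all genes, and 0% of all genes called. The median was 0.03. Cd68 was at 35.4, 36.5, 42.3, 40.5 and 21.8 under PTU and 21.1, 18.2, 46.2, 29.2 and 60.5 at 24 h. Lyz2 was at 233, 310, 374, 332 and 239 against 302, 231, 345, 303 and 335, and Cd74 at 388, 440, 498, 424 and 309 against 558, 395, 439, 197 and 359. All groups overlapped. The test of the difference between WT and BATKO responses called 0 of 25 members by either tool, with 1 at an unadjusted p under 0.05 (Cd68, -0.89, SE 0.41, edgeR adjusted p = 0.154) against 27.1% of all genes, and 12.3% of all genes called, 5.12% higher and 7.15% lower.

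Under PTU, BATKO and WT mice differed in 8 of 25 members, all lower in BATKO mice, but 70.3% of all genes were called in this comparison (33.9% lower and 36.4% higher), so that the members' share was below the background. Fcer1g was at 29.1, 45.9, 32.7, 27.5 and 30.2 in BATKO mice and at 191, 152, 241 and 128 in WT mice (-2.44, SE 0.27, edgeR adjusted p = 2.79e-09). H2-Aa was at 246, 256, 281, 205 and 151 against 599, 494, 752 and 356 (-1.28, SE 0.27, edgeR adjusted p = 0.000114). H2-Ab1, its partner chain, was at 235, 176, 272, 210 and 167 against 153, 122, 196 and 112, in the other direction (0.53, SE 0.24, edgeR adjusted p = 0.0509, and 0.0314 with DESeq2). Fitted to these groups alone, edgeR called H2-Ab1 (0.53, SE 0.18, adjusted p = 0.0178) and H2-Eb1 (0.53, SE 0.20, adjusted p = 0.0312) higher in BATKO mice. That fit also called Adgre1 and Cd68 lower, with 71.3% of all genes called. C1qb was lower (-1.13, SE 0.33), while C1qa, from the same molecule, had -0.31 (SE 0.34). Cd14 (-1.64), Cd52 (-1.22), Tyrobp (-1.18), Mrc1 (-0.85) and C1qc (-0.75) were also lower. Without WT mouse B4 C1qc was no longer called (-0.50, edgeR adjusted p = 0.13). Total counts did not overlap between the groups, at 12022144 to 14615534 in WT and 14681206 to 18073627 in BATKO mice, and of the erythrocyte genes Hba-a1 was higher in BATKO mice by 3.62 while Hbb-bs was lower by a log2 value of -1.21. Several other cell type lists had summed levels without overlap in BATKO and WT mice. Brown adipocyte genes were at 131918 to 158753 against 194479 to 220706, endothelial genes at 5790 to 6613 against 4745 to 4896, and pericyte and smooth muscle genes at 4687 to 5237 against 3330 to 3764. Macrophage genes outside the 39 were at 571 to 740 against 1421 to 2207. Of 5 testable granulocyte and mast cell genes 4 were called lower in BATKO mice, among them Cpa3 (-4.15, SE 0.47, edgeR adjusted p = 5.16e-09). The part of these shifts in the result was not tested. The labels name no library sets, and the strand setting of the counting is not given in the sources used here, so a difference between the groups in library preparation or in counting was not tested and cannot be told apart from genotype. Values of BATKO against WT mice may therefore reflect more than genotype.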

How the data were processed

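RNA extracted with Trizol was made into libraries with the total RNA SENSE kit and sequenced on a NextSeq 500, per the labels. The authors deposited whole-number counts per gene, with no normalization, in 1 table for each of the 3 experiments. The submitters' processing notes name mm10, Bowtie2 2.3.2.2 and DESeq2. For its own reanalysis of downloaded reads, the study names htseq-count after removal of reads with an alignment quality under 10. Whether these steps made the deposited tables is not stated, and their annotation and strand setting are not given in the sources used here. Reads shared with near-identical copies, such as Lyz1 and Lyz2, may have been split or lost in the counting.

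Counts were tested with edgeR 4.0.16 (quasi-likelihood, TMM, Benjamini-Hochberg, R 4.3.3) on genes with a mean normalised count above 10, in 1 fit per experiment with group means and no covariate, and for the WT time course in a fit of the 20 WT mice. Calls are an adjusted p under 0.05. DESeq2 1.42.0, RLE scaling, no count minimum, fits of only the groups compared, and fits without each mouse were the alternatives. Scripts were tested on simulated counts. Between 2 libraries of a group, chi-square over degrees of freedom was 6.81 at the lowest of 91 pairs, so none looked like copies. Exon lengths came from the reference annotation of GRCm38, with the exons of all transcripts of a gene merged. The 39 genes, the role lists and the other marker lists were chosen with earlier results of these data known, so the counts over them are descriptions. Per-mouse values, or a range or highest value, are given for 12 preset members, not all of them in every group. The same holds in each experiment for up to 6 called members with the largest change among those with a mean above 50. Of other lists, up to 3 genes with the lowest adjusted p are named. Other members given by single values or fold changes, such as Trem2, Cx3cr1, Ccr2 and Ctss, were named after their values were seen. Standard errors for edgeR were derived from the log2 fold change and the F value of its test. They and the p-values rest on variation between mice, with dispersion estimated over all groups of a fit and moderated across genes.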

Additional observations from a re-analysis of the deposited data

Results flagged for a closer look

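Mice that stood far from their group were sought with Dixon's ratio, the gap to the nearest mouse over the range of the group, in 206 sets of 4 or 5 values (the members named with values in each experiment, and the summed level). For normally distributed values about 5% of such sets, or 10.3, would pass by chance, and 25 were found. These values were untransformed counts, some of few reads, and sets from the same mouse are not independent. The 25 therefore do not measure an excess over chance.

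Mouse B11 at 3 h was apart in Ptprc (ratio 0.873), Mrc1 (0.932), Lyz2 (0.893), C1qa (0.834), S100a8 (0.991) and the summed level (0.841, at 6182 against 2308 to 2925). Mouse B23 at 12 h was apart in Cd74 (0.85), H2-Aa (0.906) and C1qc (0.844). At 24 h, mouse B26 was low in Ptprc (0.938) and mouse B27 high in S100a8 (0.931). Under PTU, WT mouse B5 had 0 counts of Cd3e (0.84), and in BATKO mice, mouse 2 was high in Ptprc (0.721) and mouse 17 in Fcer1g (0.72). BATKO mouse 8 at 24 h was high in S100a8 (0.794).

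In the temperature experiment BATKO mouse 13 at 30 °C was low in Lyz2 (0.802) and Cd14 (0.767) and high in S100a8 (0.797), and it was the lowest of its group in 15 of 27 members. CTRL mouse 20 at 30 °C was high in S100a8 (0.849), BATKO mouse 8 at 4 °C low in Cd74 (0.866) and BATKO mouse 12 at 4 °C high in Cd14 (0.909). In the diet experiment CTRL mouse 10 on HFD was high in Cd68 (0.896), Mrc1 (0.898), Lyz2 (0.912) and C1qc (0.898).

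For 4 members every CTRL mouse on HFD was above every CTRL mouse on chow while every BATKO mouse on HFD was below both BATKO mice on chow, a pattern that 26 of 12932 genes (0.201%) had. They were Laptm5 (interaction log2 value -2.07), Tyrobp (-2.07), Ctss (-3.28) and Lyz2 (-1.93), and edgeR's test of that difference gave an adjusted p of 0.721 for each.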

How the results depend on the processing

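No paired analysis was possible because the groups compared within a genotype held different mice that shared no replicate number or named litter. DESeq2 in place of edgeR moved the count of called members at 3 h to 0 (10.8% of all genes called), in the cold interaction to 2 (5.22%), for CTRL mice on HFD to 10 (6.76%) and for BATKO against CTRL mice on chow to 2 (0.256%). Without the minimum count edgeR called 3 members at 3 h (4.72% of all genes), 1 at 12 h (11.8%), 3 at 24 h (15%), 18 for CTRL mice on HFD (4.93%), 2 for BATKO mice on HFD (1.29%), 19 for BATKO against CTRL mice on chow (1.12%) and 13 for the diet interaction (0.832%). Fits of only the groups compared gave 0 at 3 h (9.29% of all genes), 2 at 12 h (24.7%) and 12 for genotypes on chow (0.879%), and the fit of all 30 mice gave 2 at 3 h (8.11%) and 2 at 24 h (29.9%). Without its highest member the mean summed level was 1710 in BATKO mice under PTU, 1754 in BATKO mice after TH, 2878 in BATKO mice at 4 °C, 3783 in BATKO mice at 30 °C and 2372 in CTRL mice on chow, a sum over fewer genes by construction, and library totals without TMM gave 2195 in CTRL mice at 4 °C. The causes of the other changes were not tested. Over all genes DESeq2 called 650 against 286 by edgeR for genotypes at 4 °C, 690 against 149 for the cold interaction, 872 against 509 for CTRL mice on HFD and 266 against 9 for BATKO mice on HFD. RLE scaling in place of TMM changed no count by more than 1.5 times. No called member reversed under any alternative run, and of 32 calls DESeq2 kept 31. Without 1 mouse the counts ran from 0 to 2 at 3 h (5.25% to 10.1% of all genes over these fits), 0 to 4 at 12 h (21.1% to 24.2%), 1 to 2 at 24 h (25.4% to 33.5%), 0 to 6 for CTRL mice on HFD (1.28% to 5.54%), 0 to 3 for the cold interaction (0.0376% to 6.82%) and 0 to 1 for the difference in TH response (8.49% to 14.9%). They ran from 10 to 16 for CTRL mice (40.5% to 47.7%) and 7 to 10 for BATKO mice (32.7% to 38.4%) in the cold.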
